A study of Mus musculus with 26 samples.

Results

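The cadherins and protocadherins are adhesion proteins of the neuronal surface, and their messages were followed here across 5 thalamic projection systems. Members were the gene columns of the deposited count table named as a cadherin (Cdh and a number) or a protocadherin (Pcdh and a number, or a clustered Pcdha, Pcdhac, Pcdhb, Pcdhga, Pcdhgb or Pcdhgc gene), 91 of 36589 genes. They fall into 17 classical cadherins, 5 non-classical cadherins, 12 non-clustered protocadherins and 57 clustered protocadherins. Genes entered by name and not by a cutoff on measured values. Members and lists were, however, chosen with earlier results of these data known.

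The study profiled 1972 single neurons from the mouse thalamus, on 26 plates sequenced in 3 batches. Neurons were labelled by a retrograde tracer from auditory, motor, prefrontal, somatosensory or visual cortex, cut out with their thalamic area, dissociated, picked by hand under fluorescence and read as 3' tags with unique molecular identifiers (UMIs). All cells came from male animals with a recorded age of 64 to 112, the unit of which is not given, and the strain, genotype and tracer are not given in the sources used here. All 5 groups were retrogradely labelled, so there was no unlabelled control. The raw counts of all cells of 1 animal and 1 system were added up, giving 5 auditory, 5 motor, 4 prefrontal, 3 somatosensory and 4 visual sums of 64 to 170 cells and 4317156 to 20322775 UMIs. Each sum is 1 replicate, and levels are given as CPM, the UMIs of a gene over all UMIs of the sum on a per-million scale, which are not divided by gene length since each UMI marks 1 transcript end. All somatosensory sums were sequenced in batch 2 and all visual sums in batch 3. 1 animal identifier is recorded for auditory replicate 5 and visual replicate 1, with different ages (70 and 91).

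The label of the cells held. Slc17a6, the vesicular glutamate transporter of thalamic relay neurons, lay between 519 and 1008 CPM over the 21 sums. Tcf7l2, a thalamic transcription factor, lay between 670 and 1505 CPM. The 10 genes listed for such neurons summed to between 7274 and 11279 CPM. That list includes Snap25 and Syt1, neuronal genes not particular to the thalamus, with medians of 3485 and 2049 CPM. Rora, Lef1 and Prox1 held at least 801, 95.1 and 60.2 CPM. Gbx2 ran from 15.6 to 343 CPM and Lhx2 from 1.71 to 107. Of 10 GABA-neuron genes, summing to at most 72.0 CPM in any sum, the defining Gad1 and Slc32a1 did not exceed 0.509 and 0.115 CPM, while Gad2, Sst and Npy reached 21.3, 50.7 and 34.1 CPM with medians of 0.0949, 0.366 and 0.443. The 10 astrocyte genes summed to 326 to 559 CPM in motor and 301 to 439 in prefrontal sums, above the 146 to 249 of auditory and 180 to 208 of visual sums, and the somatosensory sums, at 145 to 334, overlapped with all 4. Most of that total was Slc1a2 (median 290 CPM), while Gfap, Aqp4 and Aldh1l1 had medians of 0. Of the microglia genes, C1qb had a median of 120 CPM, while Cx3cr1, P2ry12 and Tmem119 had medians of 0. The 10 oligodendrocyte genes ran from 12.9 to 412 CPM and overlapped between all systems. The 6 oligodendrocyte precursor and 10 vascular genes summed to at most 9.22 and 11.9 CPM. The part of these markers in the results was not tested directly, but the calls named as stable below were also made without the 75 cells that carried 3 or more markers of another cell type.

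Classical cadherins bind the same or a related cadherin on the facing membrane and hold the actin skeleton through catenins. Type II members differ between brain nuclei during development and are known for marking which neurons connect. Non-clustered protocadherins of the delta-1 and delta-2 kinds adhere more weakly and signal through their cytoplasmic tails, the delta-2 tails through the WAVE actin regulator. Clustered protocadherins are built from variable exons joined, in the alpha and gamma clusters, to shared constant exons. Single neurons use a few of these promoters at random, and the proteins serve to tell a neuron's own branches from those of others.

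The 250 bases before the annotated start of 5 non-clustered protocadherins are shown because these 5 differed between systems or between classes of cells. Sequences are RefSeq's on GRCm38.p6, the build of the submitters' mm10 alignment, written 5' to 3' on the strand of the gene. Of the 91 members, 22 had a promoter entry; windows that overlapped an annotated gene model were not printed. The Pcdh9 window is chr14:93890680-93890929 (minus strand), that of Pcdh10 is chr3:45378148-45378397 (plus strand), that of Pcdh17 is chr14:84443313-84443562 (plus strand), that of Pcdh8 is chr14:79771313-79771562 (minus strand) and that of Pcdh19 is chrX:133688994-133689243 (minus strand). Capitals mark a TATA box (TATAAA).
Pcdh9: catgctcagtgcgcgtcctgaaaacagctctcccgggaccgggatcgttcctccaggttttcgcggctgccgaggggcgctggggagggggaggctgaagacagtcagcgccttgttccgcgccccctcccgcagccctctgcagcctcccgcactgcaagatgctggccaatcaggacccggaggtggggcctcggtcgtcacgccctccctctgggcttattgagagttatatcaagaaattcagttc
Pcdh10: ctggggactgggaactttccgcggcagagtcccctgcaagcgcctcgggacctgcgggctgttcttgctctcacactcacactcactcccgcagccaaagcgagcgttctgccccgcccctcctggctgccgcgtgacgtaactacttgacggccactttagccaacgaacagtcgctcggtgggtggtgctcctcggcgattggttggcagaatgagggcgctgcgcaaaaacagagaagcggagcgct
Pcdh17: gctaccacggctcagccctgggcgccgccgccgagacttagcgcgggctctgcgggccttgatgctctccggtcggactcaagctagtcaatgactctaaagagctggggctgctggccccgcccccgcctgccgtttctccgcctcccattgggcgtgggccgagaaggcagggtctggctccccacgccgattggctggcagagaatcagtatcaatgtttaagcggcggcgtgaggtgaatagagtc
Pcdh8: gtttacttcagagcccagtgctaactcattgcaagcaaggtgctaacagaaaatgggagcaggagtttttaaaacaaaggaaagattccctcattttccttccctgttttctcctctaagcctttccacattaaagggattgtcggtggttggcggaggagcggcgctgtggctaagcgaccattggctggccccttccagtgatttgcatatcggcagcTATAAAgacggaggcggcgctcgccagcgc
Pcdh19: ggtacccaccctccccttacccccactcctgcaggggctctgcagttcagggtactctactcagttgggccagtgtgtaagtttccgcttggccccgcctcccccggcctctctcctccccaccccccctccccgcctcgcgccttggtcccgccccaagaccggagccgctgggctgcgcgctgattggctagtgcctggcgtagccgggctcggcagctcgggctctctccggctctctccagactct

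Of 4 motifs searched on both strands, the TATA box (TATAAA), the TCF and LEF core (CTTTGA), a homeodomain core (TAATTA) and the ROR core (AGGTCA), only the first occurred in the 5 windows, once, in Pcdh8. It occurred in 12.4% of the 32851 windows of this length in the whole table, the others in 13.8%, 4.84% and 14%. The Pcdh8 window held 51.2% G and C with 11 CG pairs. The other 4 held 63.2% to 69.2% with 16 to 22 CG pairs, above the medians of 52.4% and 6 over all windows. Pcdh20, also called among the systems but at a low level, had a window that was not printed. It held 42.4% with 3 CG pairs, below these medians. These letters describe the windows, and no binding or methylation was measured.

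In the comparison of the 5 systems, 73 of the 91 members had enough counts to test, and 14 of the 73 differed at an adjusted p under 0.05 (edgeR's quasi-likelihood F test with batch as a term, Benjamini-Hochberg over all 17211 genes tested). The same test called 12.6% of all genes. Among the 14 were 5 of 14 tested classical cadherins, the 1 tested non-classical cadherin (Cdh13), 5 of 11 tested non-clustered protocadherins and 3 of 47 tested clustered protocadherins. The 18 members not tested had few counts, among them the endothelial cadherin Cdh5 (5 UMIs) and the epithelial cadherin Cdh1 (10 UMIs), and Cdh3 and Pcdhgb1 had 0 UMIs. Each system was then set against the mean of the other 4, contrasts that share samples. Auditory called 9 members (background 7.97%), motor 5 (3.91%), prefrontal 6 (9.17%), somatosensory 1 (0.232%) and visual 1 (0.145%). A sum over cells does not separate the number of cells with a message from the amount in each, and the share of cells with a UMI is therefore given after the non-clustered protocadherins.

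Type I classical cadherins are the strong adhesion molecules, led here by Cdh2, the N-cadherin of neuronal synapses (chromosome 18, 16588877 to 16809246, minus strand). Cdh2 stood at 114, 94.0, 96.9, 75.3 and 72.7 CPM in the auditory sums, with 66.1, 54.3, 67.1, 70.9 and 83.0 for motor and 50.1, 61.7, 77.9 and 59.2 for prefrontal. The somatosensory sums held 64.5, 77.7 and 65.8 and the visual sums 106, 80.9, 97.5 and 90.5 CPM. All 4 visual sums lay above every prefrontal and somatosensory sum and overlapped with auditory sums and with motor replicate 5, and the auditory sums overlapped with every other system. The auditory and visual means were 90.5 ± 16.9 (n = 5) and 93.6 ± 10.5 CPM (SD, n = 4). Its adjusted p of 0.0464 (edgeR quasi-likelihood F test) lay at the threshold and no contrast of a single system passed. The call was lost in 21 of 31 alternatives, including 15 of the 21 that left out 1 sum, with adjusted p between 0.00873 and 0.292.

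Cdh4, the retinal cadherin of the same type, spread widely between animals of 1 system. It averaged 70.5 ± 28.5 CPM for auditory (n = 5), 39.3 ± 7.62 for motor (n = 5), 55.9 ± 36.1 for prefrontal (n = 4), 57.8 ± 18.4 for somatosensory (n = 3) and 17.2 ± 8.35 for visual sums (SD, n = 4). The visual sums, at 20.8, 5.72, 25.2 and 17.1 CPM, overlapped only with prefrontal replicate 1 at 24.2 CPM. The test among systems gave an adjusted p of 0.154 (edgeR quasi-likelihood). Cdh15, the muscle cadherin, lay at 3.03 to 10.6 CPM in the means and did not pass (adjusted p = 0.295, the same test).

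Type II cadherins sort neurons by selective adhesion. In auditory neurons 6 of the 11 tested type II members differed from the other systems, 3 higher and 3 lower (background 7.97% of all genes tested). Of these calls only that of Cdh8 was kept in all 31 alternatives, and those of Cdh12 and Cdh6 were lost in 27 and 19. Over the 14 tested classical cadherins the median size of the auditory log2 difference was 0.77, beside 0.32 over all genes tested. It was 0.70 over the 47 tested clustered protocadherins, of which 2 were called, and 0.35 over the 11 non-clustered ones. The size alone thus did not set the classical cadherins apart. Cdh8 (chromosome 8, 99024471 to 99416471, minus strand) was lowest in auditory neurons, with sums of 19.6, 36.8, 39.2, 20.4 and 14.1 CPM. Motor sums held 74.1, 68.3, 85.1, 80.8 and 83.0 CPM, prefrontal sums 50.2, 35.4, 55.6 and 77.9, somatosensory sums 85.6, 50.8 and 51.3, and visual sums 118, 113, 110 and 104. The visual sums all lay above every other sum, and the auditory sums overlapped only with prefrontal replicate 2. The auditory level was 1.51 log2 units below the mean of the others (log2 fold -1.51, SE 0.22, adjusted p = 0.000175, edgeR quasi-likelihood), and the call was kept in all 31 alternatives. The visual contrast did not pass (adjusted p = 0.147, the same test). Within batch 1 auditory sums averaged 28.2 CPM against 57.0 for the rest, within batch 2 29.8 against 65.2, and in batch 3 the single auditory sum held 14.1 against 98.3.

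Cdh10, a type II cadherin of the brain, and Cdh11, first described in osteoblasts, were also low in auditory neurons. Cdh10 stood at 4.46, 4.13, 13.6, 18.2 and 11.4 CPM in auditory sums. Motor sums held 39.3, 43.7, 30.3, 33.3 and 33.9 CPM, prefrontal sums 3.84, 15.1, 14 and 29.9. It stood at 24.8, 37.5 and 32.8 CPM in somatosensory and 32.5, 44.2, 19 and 26.1 in visual sums. Auditory and prefrontal sums overlapped each other, and the auditory sums lay below all motor, somatosensory and visual sums. The auditory difference was -1.49 log2 units (SE 0.35, adjusted p = 0.0106) and the motor difference 1.16 (SE 0.32, adjusted p = 0.0433, both edgeR quasi-likelihood). Without batch 1 the auditory adjusted p was 0.0653 and that among systems 0.124; the motor call was lost in 14 of 31 alternatives, with adjusted p up to 0.560.

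Cdh11 held 40.1, 28.3, 35.3, 17.1 and 26.4 CPM in the auditory sums, against 43.2, 52.5, 72.9, 77.7 and 81.6 for motor and 29.2, 31.2, 62.5 and 44.0 for prefrontal. Somatosensory sums held 76.8, 72.0 and 59.7 CPM and visual sums 49.0, 53.1, 43.5 and 44.4. All 5 auditory sums lay below every motor, somatosensory and visual sum, and overlapped with prefrontal. The auditory difference was -0.84 log2 units (SE 0.20, adjusted p = 0.0112, edgeR quasi-likelihood). It did not pass without auditory replicate 5 (adjusted p = 0.0802), without batch 2 (0.335) or without batch 3 (0.0850), and within batch 1 the means were close, 34.2 against 39.0 CPM. Among all systems the call was lost without batch 3 (0.126).

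Cdh12, a brain type II cadherin, was lowest in prefrontal neurons. Its prefrontal sums held 9.75, 14.2, 36.8 and 19.3 CPM, against 46.2, 67.6, 62.5, 76.6 and 54.7 in auditory and 59.0, 56.9, 44.4, 45.0 and 49.5 in motor sums. Somatosensory sums held 43.8, 60.7 and 57.2 CPM and visual sums 37.6, 23.4, 36.9 and 51.2. Of the prefrontal sums, only replicate 3 overlapped with another system, the visual one. The prefrontal difference was -1.34 log2 units (SE 0.24, adjusted p = 0.000688, edgeR quasi-likelihood); without batch 1 its adjusted p was 0.0833. Among all systems the call was lost without batch 1 (0.153) and with cells summed by sort date (0.0515). The auditory difference of 0.64 (SE 0.20, adjusted p = 0.0496, the same test) was lost in 27 of 31 alternatives.

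2 type II cadherins of low level were higher in auditory neurons. Cdh20 held 14.2, 18.2, 21.4, 13.6 and 13 CPM there, above all other sums, whose highest was visual replicate 4 at 12.7 CPM (log2 fold 2.39, SE 0.65, adjusted p = 0.0259, edgeR quasi-likelihood). The adjusted p rose to 0.0549 when auditory replicate 2 was left out, to 0.0628 for auditory replicate 5, to 0.0587 for batch 2 and to 0.0786 for batch 3, and was 0.0768 without the batch term. Cdh6 averaged 5.43 ± 2.74 CPM in auditory (SD, n = 5) and 0.889 to 2.74 CPM elsewhere (log2 fold 1.70, SE 0.50, adjusted p = 0.0399, the same test), a call lost in 19 of 31 alternatives. Neither passed the test among all 5 systems (adjusted p = 0.0525 and 0.0742, edgeR quasi-likelihood). Cdh7, with a mean of 27.4 CPM, did not pass either (adjusted p = 0.734, the same test).

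Cdh13, the T-cadherin, has no transmembrane or catenin-binding part and sits in the membrane by a lipid anchor (chromosome 8, 118283733 to 119324921, plus strand). It was highest in prefrontal neurons, with sums of 142, 177, 141 and 161 CPM. Auditory sums held 65.9, 123, 79.1, 114 and 69.5 CPM, motor sums 56.8, 47.9, 102, 77.0 and 54.5, somatosensory sums 36.6, 45.8 and 34.4, and visual sums 43.0, 45.1, 54.8 and 71.5. All 4 prefrontal sums lay above every other sum. The difference was 1.40 log2 units (SE 0.18, adjusted p = 2.65e-05, edgeR quasi-likelihood) and was called in all 31 alternatives. Prefrontal against other sums averaged 159 and 73.5 CPM in batch 1, 141 and 60.8 in batch 2 and 161 and 66.2 in batch 3. The other 4 non-classical cadherins had at most 21 UMIs each (Cdh23) and were not tested.

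**Figure D1:**
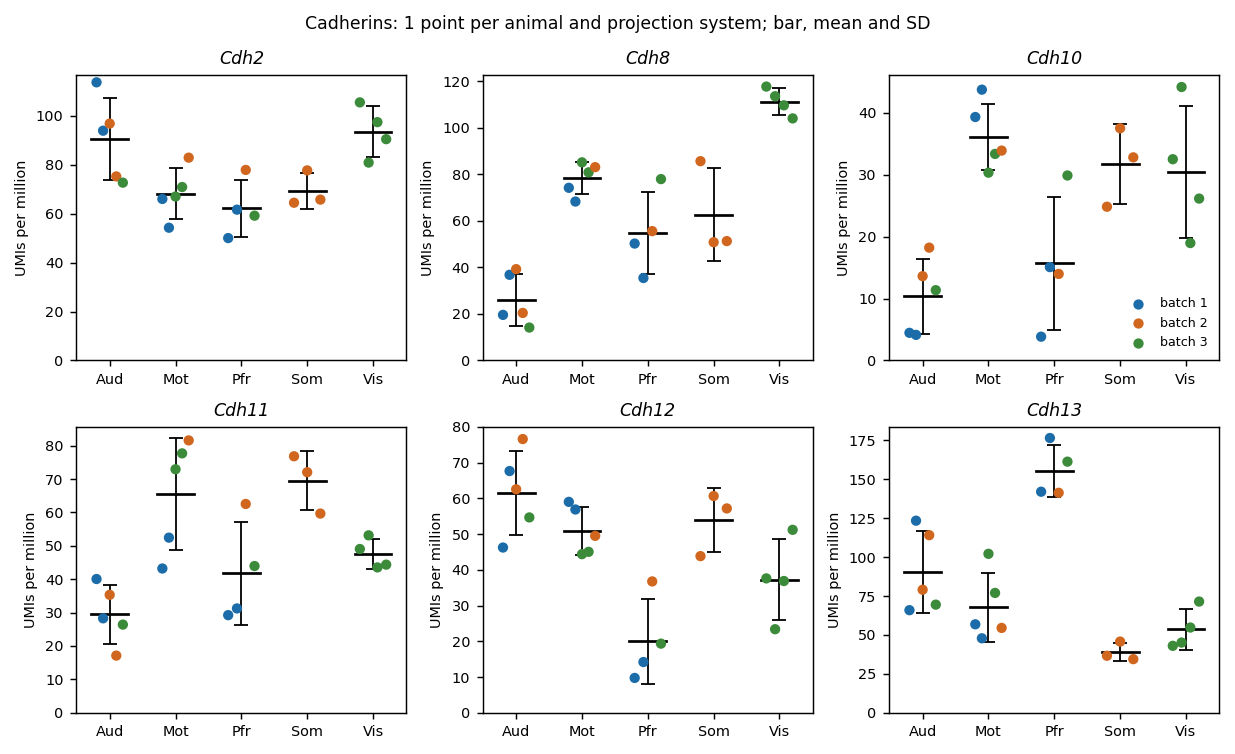
Levels of 6 cadherins in CPM (vertical axis, from 0) by projection system (horizontal axis); each point is the sum of 1 animal, coloured by sequencing batch, and bars give the mean and SD. The 5 auditory points of Cdh8 lie between 14.1 and 39.2, and the 4 prefrontal points of Cdh13, between 141 and 177, lie above all others.

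Delta-1 protocadherins have a long extracellular part and a tail that can bind a phosphatase. Pcdh9, the member with the most UMIs of the family (74197), lies on chromosome 14 from 93013410 to 93890679 (minus strand; promoter window above). Auditory sums held 198, 244, 263, 326 and 190 CPM, motor sums 341, 338, 479, 495 and 514, and prefrontal sums 96.1, 85.8, 109 and 200. Somatosensory sums held 401, 554 and 435 CPM and visual sums 521, 447, 446 and 418. The prefrontal sums were the lowest, and only replicate 4, at 200 CPM, overlapped with another system, the auditory one. The prefrontal difference was -1.58 log2 units (SE 0.16, adjusted p = 1.95e-06) and the motor difference 0.69 (SE 0.13, adjusted p = 0.00273, both edgeR quasi-likelihood). The prefrontal call was kept in all 31 alternatives, and the motor one was lost when cells were summed by sort date (adjusted p = 0.0638). Prefrontal against other sums averaged 91.0 and 280 CPM in batch 1, 109 and 416 in batch 2, and 200 and 428 in batch 3.

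Pcdh7 (chromosome 5, 57717967 to 58133230, plus strand) was likewise lowest in prefrontal neurons. Its sums there held 39.1, 44.9, 32.6 and 54.8 CPM, against 98.0, 126, 122, 139 and 84.5 in auditory and 156, 150, 127, 154 and 119 in motor. Somatosensory sums held 87.2, 131 and 161 CPM and visual sums 134, 95.7, 87.1 and 105. All 4 prefrontal sums lay below every other sum. The difference was -1.54 log2 units (SE 0.19, adjusted p = 1.51e-05, edgeR quasi-likelihood), called in all 31 alternatives, with 42.0 against 132 CPM in batch 1, 32.6 against 127 in batch 2 and 54.8 against 113 in batch 3. The motor difference was 0.64 (SE 0.15, adjusted p = 0.0161, the same test) and was lost without motor replicate 4 (0.0686), batch 1 (0.279) or batch 3 (0.0745) and when cells were summed by sort date (0.155).

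Pcdh11x, on chromosome X, spread widely within systems, for instance 22.5, 7.17, 64.5, 11.9 and 31.7 CPM in the auditory sums, and did not pass (adjusted p = 0.687, edgeR quasi-likelihood). Pcdh1 had a mean of 6.01 CPM and did not pass (adjusted p = 0.482, the same test).

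Delta-2 protocadherins carry the tail that recruits the WAVE complex. Pcdh19, on chromosome X (133582860 to 133688987, minus strand), mutations of which cause an epilepsy seen mainly in females, held 65.2, 92.8, 56.1, 54.0 and 85.2 CPM in the auditory sums. It held 12.3, 23.5, 25.9, 33.7 and 21.5 CPM in motor, 55.7, 44.1, 39.5 and 55.8 in prefrontal, 12.7, 13.4 and 11.5 in somatosensory and 37.2, 52.7, 50.4 and 42.3 in visual sums. The order of the means ran from somatosensory (12.5 ± 0.952 CPM, n = 3) and motor (23.4 ± 7.75, n = 5) through visual (45.7 ± 7.16, n = 4) and prefrontal (48.8 ± 8.28, n = 4) to auditory (70.7 ± 17.5, SD, n = 5). Prefrontal sums overlapped with visual and with the lower auditory sums, and somatosensory sums with motor replicate 1. The auditory difference was 1.34 log2 units (SE 0.15, adjusted p = 1.35e-05, edgeR quasi-likelihood), called in all 31 alternatives, with 79.0 against 33.9 CPM in batch 1, 55.0 against 19.7 in batch 2 and 85.2 against 42.6 in batch 3. Motor was lower (-0.75, SE 0.17, adjusted p = 0.0113), somatosensory lower (-1.36, SE 0.25, 0.0231) and prefrontal higher (0.64, SE 0.17, 0.0201, edgeR quasi-likelihood throughout). The somatosensory value could be compared within batch 2 alone, at 12.5 against 42.8 CPM. Its call did not pass without somatosensory replicate 1, 2 or 3 (adjusted p = 0.0630, 0.0950 and 0.109), auditory replicate 3 (0.0503), motor replicate 5 (0.122) or prefrontal replicate 3 (0.0546), nor with cells summed by sort date (0.0584). The prefrontal call did not pass without prefrontal replicate 1 (0.0692) or 3 (0.0799) or any 1 batch, and the motor call did not pass without batch 1 (0.151) or batch 3 (0.127), without the batch term (0.0679) or with cells summed by sort date (0.0798).

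Pcdh17, known for clustering synaptic vesicles in circuits between cortex and basal ganglia (chromosome 14, 84443563 to 84539002, plus strand), was lowest in visual neurons. The visual sums held 1.30, 19.6, 12.9 and 21.7 CPM. Motor sums held 191, 227, 118, 161 and 61.0 CPM, prefrontal sums 188, 154, 54.0 and 181, auditory sums 55.4, 50.1, 57.2, 15.8 and 88.0, and somatosensory sums 82.2, 18.3 and 85.0. The visual sums overlapped only with auditory replicate 4 and somatosensory replicate 2. The visual difference was -3.27 log2 units (SE 0.59, adjusted p = 0.0212, edgeR quasi-likelihood), and within batch 3, the only batch with visual sums, the means were 13.9 against 137 CPM. The call did not pass without auditory replicate 5 (adjusted p = 0.0711), prefrontal replicate 4 (0.0644), visual replicate 2 (0.0539) or visual replicate 3 (0.0939), nor when cells were summed by sort date (0.0946). Among all systems the adjusted p was 0.00205, and 0.180 without batch 3.

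Pcdh10, which links adhesion to actin in growing axons, was expressed in all systems, with means from 72.6 ± 19.8 CPM in somatosensory (n = 3) to 114 ± 10.8 in visual sums (SD, n = 4), and did not pass (adjusted p = 0.102, edgeR quasi-likelihood). Pcdh8 and Pcdh18, at means of 14.5 and 6.21 CPM, did not pass between systems either (adjusted p = 0.746 and 0.147, the same test). Of the remaining non-clustered members, Pcdh20 was called at a mean of 1.53 CPM, with 3.27, 4.04, 7.24, 0 and 5.65 CPM in motor sums and 0 to 3.79 CPM elsewhere (adjusted p = 0.0410, edgeR quasi-likelihood), a call lost in 18 of 31 alternatives. The contrast of motor alone was lost in 6 of 31. Pcdh15, the tip-link protocadherin of hair cells, had a mean of 7.28 CPM and did not pass (adjusted p = 0.750, the same test), and Pcdh12 had 50 UMIs and was not tested.

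**Figure D2:**
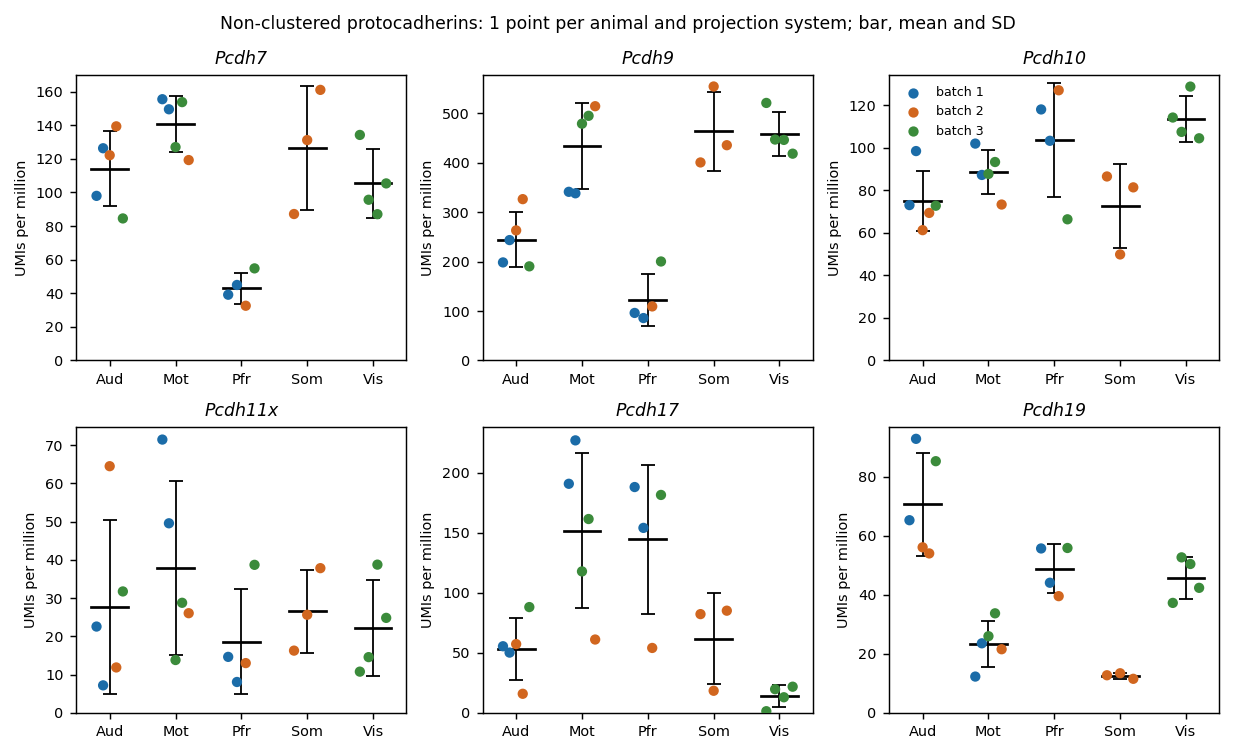
Levels of 6 non-clustered protocadherins in CPM (vertical axis, from 0) by projection system (horizontal axis); each point is the sum of 1 animal, coloured by batch, with mean and SD. The prefrontal points of Pcdh7 (32.6 to 54.8) lie below all others, the visual points of Pcdh17 (1.30 to 21.7) near the axis, and Pcdh11x scatters within every system.

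Summed over the 12 non-clustered protocadherins, motor sums held 909 ± 52.7 CPM (n = 5), somatosensory 808 ± 58.6 (n = 3), visual 791 ± 37.2 (n = 4), auditory 624 ± 52.0 (n = 5) and prefrontal sums 513 ± 88.3 (SD, n = 4). The 17 classical cadherins varied less, from 321 ± 71.7 CPM in prefrontal to 399 ± 17.1 in visual sums (SD, n = 4 each). Between motor and prefrontal sums, Pcdh9 alone made up most of the difference in the first total.

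The share of cells with at least 1 UMI was counted over all cells of a system after thinning each cell to 20000 UMIs, and is a description with no test and no cell type lacking these genes as a background. Cdh8 was seen in 20.8% of auditory and 57.7% of visual cells (28.7 and 70.1% without thinning), and Cdh13 in 63.7% of prefrontal cells against 29.5 to 41.1% in the other systems (75.0% against 43.0 to 56.6%). Pcdh9 was seen in 58.5% of prefrontal cells against 75.0 to 94.9% elsewhere, and Pcdh7 in 25.5% against 45.8 to 63.2%. Pcdh17 was seen in 11.3% of visual cells against 28.4 to 57.0% elsewhere. For each of these 5 genes the system named lowest or highest by its summed level was also lowest or highest by its share of cells.

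Of the clustered protocadherins, the 3 called of 47 tested stand beside the background of 12.6%. All 57 lie on chromosome 18 on the plus strand. The 13 alpha genes span 36930184 to 37187661, the 22 beta genes 37264938 to 37524479 and the 22 gamma genes 37661793 to 37841873 (GENCODE vM21, GRCm38). The alpha genes end within 4 bases of each other and the gamma genes within 3, because they share constant 3' exons, while the 22 beta genes have 22 different ends. A 3' tag in the shared exons cannot name 1 alpha or gamma gene, and how such tags were assigned is not given in the sources used here. Single alpha and gamma values are therefore uncertain.

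Over the systems the 22 beta genes together held 154 to 189 CPM in the means, the 13 alpha genes 31.1 to 62.6 and the 22 gamma genes 25.8 to 59.6. Beta totals overlapped between all systems. Alpha totals of the somatosensory sums (24.8 to 38.1 CPM) lay below all motor and visual sums, and gamma totals of the auditory sums (45.7 to 88.2 CPM) lay above all somatosensory and visual sums. The best represented were Pcdhb17 (mean 27.8 CPM), Pcdhb9 (21.1 CPM) and the C-type alpha gene Pcdhac2 (17.1 CPM), and none of them passed (adjusted p = 0.919, 0.921 and 0.409, edgeR quasi-likelihood). Pcdhb17 means lay between 23.4 ± 7.15 CPM in prefrontal (n = 4) and 30.9 ± 3.88 in visual sums (SD, n = 4).

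Pcdhgc4, a C-type gamma gene known to support the survival of some neurons, was highest in auditory neurons. Auditory sums held 28.7, 17.2, 22.2, 25.5 and 19.7 CPM. Motor sums held 15.9, 8.03, 8.74, 6.88 and 5.65 CPM, prefrontal sums 18.6, 7.10, 5.90 and 8.99, somatosensory sums 9.16, 10.5 and 4.96, and visual sums 9.84, 8.18, 9.37 and 16.7. Of the other 16 sums only prefrontal replicate 1 reached the auditory range. The difference was 1.16 log2 units (SE 0.26, adjusted p = 0.00819, edgeR quasi-likelihood) and did not pass without batch 2 (0.217). Among all systems (adjusted p = 0.0286, the same test) the call was lost in 9 of 31 alternatives.

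Pcdhb20 was lowest in prefrontal neurons, at 3.84, 6.07, 9.55 and 6.45 CPM. Auditory sums held 33.1, 22.1, 18.1, 15.1 and 22.2 CPM, motor sums 17.5, 20.3, 27.0, 24.4 and 14.1, somatosensory sums 8.18, 13.2 and 18.5, and visual sums 12.9, 19, 5.21 and 24.1. Prefrontal sums overlapped with 1 somatosensory and 1 visual sum. The difference was -1.39 log2 units (SE 0.35, adjusted p = 0.0133, edgeR quasi-likelihood) and did not pass without prefrontal replicate 1 (0.0548), prefrontal replicate 4 (0.0668) or batch 1 (0.350). Among all systems (adjusted p = 0.0331, the same test) the Pcdhb20 call was lost in 11 of 31 alternatives, with adjusted p up to 0.467; it was 0.112 with cells summed by sort date and 0.0878 without the cells that carried markers of another cell type. Pcdha2 was listed at 0 in 4 of the 5 auditory sums and at 0.390 CPM in the other one, below every sum of the other systems, which held 0.475 to 6.58 CPM (adjusted p = 0.00251 for auditory, edgeR quasi-likelihood; 0.0568 without batch 2). The Pcdha2 call among all systems was lost without each of the 3 batches in turn (adjusted p up to 0.0990).

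**Figure D3:**
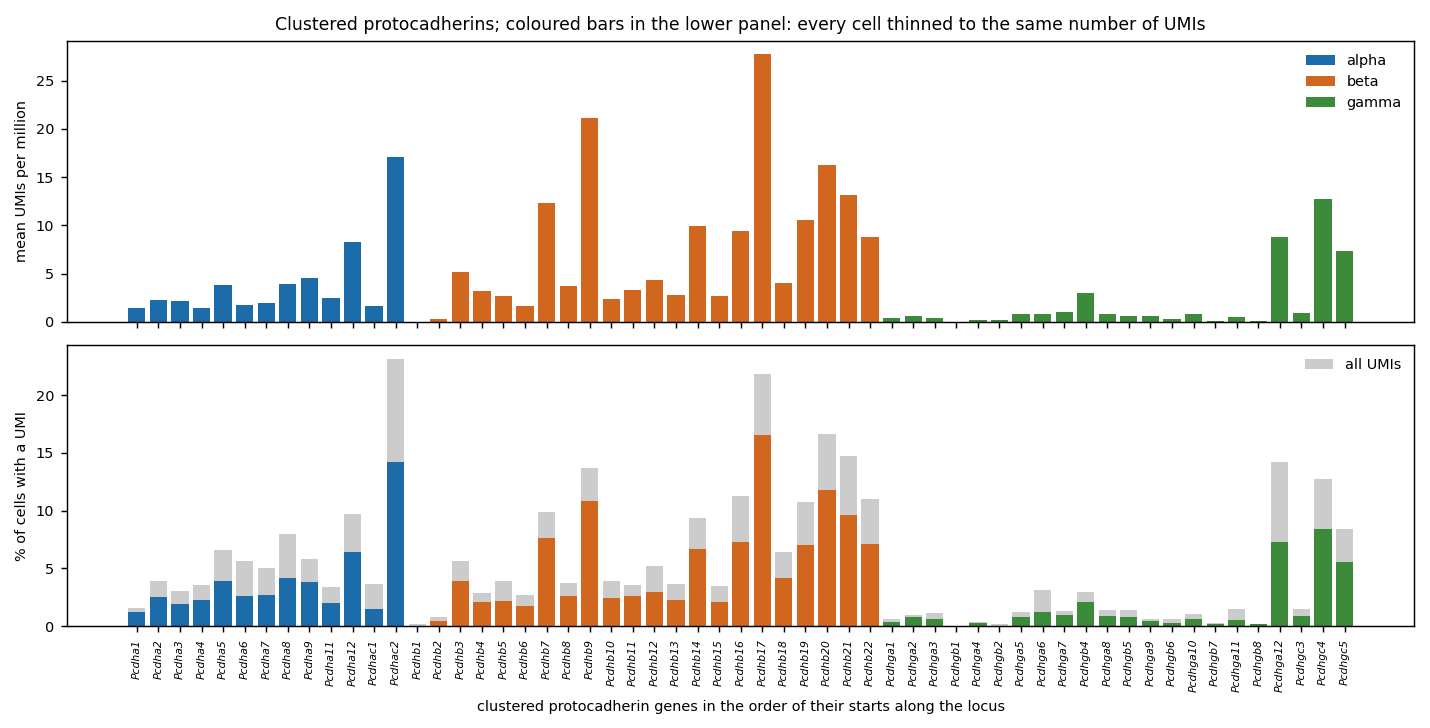
Mean level in CPM (upper panel, 21 sums) and percent of cells with a UMI (lower panel) of the 57 clustered protocadherins in their order along the locus; colours mark alpha, beta and gamma, grey bars use all UMIs and coloured bars in the lower panel 20000 UMIs per cell. Pcdhb17, at 27.8 CPM, is the tallest bar.

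Single neurons showed few clustered protocadherins at a time. With each cell thinned to 20000 UMIs (the lowest cell had 20509, so none was left out), a cell showed 1.95 ± 0.229 of the 57 genes (SD over 21 sums), and no cell showed more than 7. Without thinning the value was 3.03 ± 0.546, with a highest cell of 11. After thinning, 12.5% of cells showed none. Motor sums stood at 2.28 ± 0.0998 genes per cell (n = 5) and did not overlap with auditory (1.81 ± 0.193, n = 5), prefrontal (1.79 ± 0.156, n = 4), somatosensory (1.89 ± 0.119, n = 3) or visual sums (1.92 ± 0.0864, SD, n = 4). This was not tested, no cell type that lacks these genes was sampled as a background, and a UMI count of 0 at this depth does not show that a gene was silent. For comparison, the 12 non-clustered protocadherins gave 2.95 ± 0.355 genes per cell and the 17 classical cadherins 2.58 ± 0.380 after the same thinning (SD over 21 sums). Motor sums also had the highest mean for the non-clustered ones, 3.43 ± 0.258 (SD, n = 5) against 2.67 to 3.00, and overlapped with prefrontal and somatosensory sums. For classical cadherins the motor mean was 2.85 ± 0.244 and the somatosensory mean 3.00 ± 0.0811 (SD, n = 5 and 3).

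Thalamic projection neurons of each system form a graded series, and 3 genes known to mark steps of it were used to class cells: Tnnt1, Necab1 and Calb2. A cell was put in the class of the gene that was highest in it, which placed 1899 of 1972 cells; in 384 of them a second of these genes was within 2-fold. The class was thus set from these 3 genes alone, which were left out of the counts. Counts were summed per animal, system and class and compared within animals, over 58 sums (20 Tnnt1, 20 Necab1 and 18 Calb2 sums). Of the 91 members 45 could be tested.

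Between the Calb2 and Tnnt1 classes 7 of the 45 members differed, 6 higher and 1 lower (edgeR quasi-likelihood, adjusted p under 0.05; background 11.9% of 12131 genes). Of the 10 tested non-clustered protocadherins 5 passed, of the 12 classical cadherins 2, and of the 22 clustered protocadherins 0. At an unadjusted p under 0.05 the last count was 0 too, beside 2819 of the 12131 genes, and DESeq2 called 0. The median size of the log2 difference was 1.13 over the 10 non-clustered protocadherins, 0.35 over the 22 clustered ones and 0.31 over all genes tested.

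With all systems pooled, Pcdh19 rose from the Tnnt1 class (lowest 0.681, median 10.8, highest 26.2 CPM) over the Necab1 class (lowest 0, median 41.9, highest 99.9) to the Calb2 class (lowest 0.93, median 63.8, highest 119). The last step did not hold in motor (Necab1 mean 37.4, Calb2 mean 33.7 CPM) and prefrontal sums (63.9 and 49.3). The Necab1 sum was above the Calb2 sum in 6 of 18 pairs. Against the Tnnt1 sum, Pcdh19 was higher in the Calb2 sum in 16 of 17 pairs from the same animal and system (log2 fold 2.49, SE 0.39, adjusted p = 7.62e-06, edgeR quasi-likelihood). Pcdh8, known for the activity-driven removal of N-cadherin from synapses, had medians of 0.519, 7.04 and 16.9 CPM in the 3 classes and was higher in 15 of 17 pairs (4.98, SE 0.84, adjusted p = 2.60e-05, the same test). Its means were 2.62 ± 5.34, 21.1 ± 36.4 and 24.8 ± 23.4 CPM (SD, n = 20, 20 and 18). By system, the highest Pcdh8 mean was in the Necab1 class of somatosensory neurons, at 117 ± 30.2 CPM (SD, n = 2), which gave no Calb2 sum. A Pcdh8 UMI was seen in 10.2% of all cells, and 20 cells held 41.9% of its UMIs. Pcdh11x had means of 9.96 ± 10.0, 31.8 ± 33.2 and 33.0 ± 25.1 CPM (SD, n = 20, 20 and 18) and was higher in 16 of 17 pairs (2.46, SE 0.49, adjusted p = 0.000266, edgeR quasi-likelihood). Both classes overlapped in range for each of these genes, while the pairs within animals mostly went one way.

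Pcdh17 was higher in the Calb2 class in 13 of 17 pairs (1.44, SE 0.37, adjusted p = 0.00568, edgeR quasi-likelihood), with means of 43.0 ± 54.3, 125 ± 101 and 80.0 ± 58.7 CPM (SD, n = 20, 20 and 18). In motor sums the Pcdh17 mean was instead higher in the Tnnt1 class (107 ± 74.4 CPM) than in the Calb2 class (82.5 ± 53.8, SD, n = 5 each). The Pcdh17 call did not pass without the auditory sums (0.0761) or the prefrontal sums (0.109). Pcdh9 went the other way, with 434 ± 151, 295 ± 135 and 265 ± 141 CPM (SD, n = 20, 20 and 18), and was higher in the Calb2 class in 1 of 17 pairs (-0.76, SE 0.15, adjusted p = 0.000185, the same test). Of the classical cadherins, the type II member Cdh22 was higher in 16 of 17 pairs (2.86 ± 5.33 against 13.4 ± 9.52 CPM, SD, n = 20 and 18; log2 fold 3.90, SE 0.86, adjusted p = 0.00107, edgeR quasi-likelihood). Cdh15 was higher in 10 of 17 (3.09, SE 1.01, adjusted p = 0.0361, the same test), a call lost in 12 of 32 alternatives with adjusted p up to 0.237. The calls of Pcdh8, Pcdh9, Pcdh11x, Pcdh19 and Cdh22 were kept in all 32 alternatives.

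The Necab1 class was then set against the mean of the other 2. Here 2 of the 45 members passed (background 6.95%), both delta-2 protocadherins, and 0 of the 22 clustered ones. Of these 22, 1 had an unadjusted p under 0.05, beside 2410 of the 12131 genes tested, and DESeq2 called 1. Pcdh10 held 125 ± 36.1 CPM in the Necab1 class, 69.5 ± 25.3 in the Tnnt1 class and 87.1 ± 36.2 in the Calb2 class (SD, n = 20, 20 and 18). It was higher in the Necab1 sum in 19 of 19 pairs with Tnnt1 and in 15 of 18 pairs with Calb2 (log2 fold 0.66, SE 0.14, adjusted p = 0.00211, edgeR quasi-likelihood) and was called in all 32 alternatives. Pcdh18 (2.34, SE 0.75, adjusted p = 0.0462, the same test) was lost in 16 of 32. Pcdh19 missed the threshold here (0.99, SE 0.32, adjusted p = 0.0536, edgeR quasi-likelihood).

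**Figure D4:**
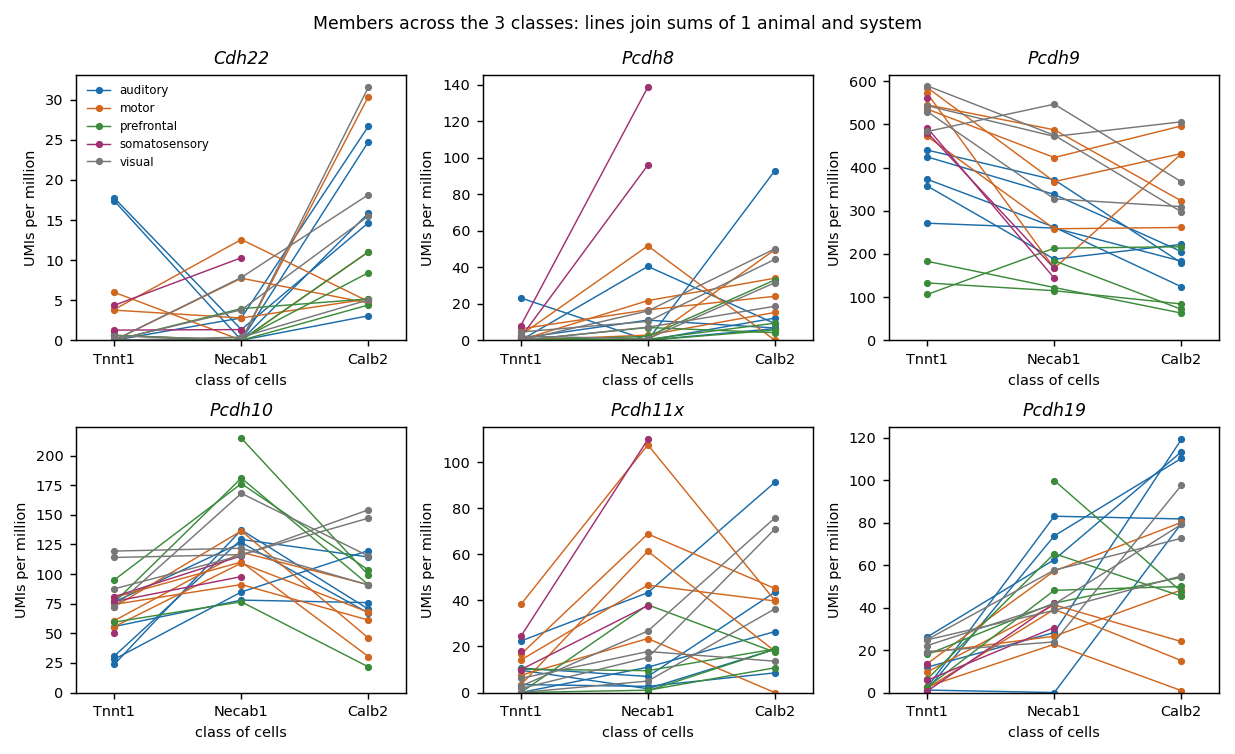
Levels of 6 members in CPM (vertical axis, from 0) in the Tnnt1, Necab1 and Calb2 classes (horizontal axis); each line joins the class sums of 1 animal and system, coloured by system. Lines of Pcdh19 climb from Tnnt1 to Calb2 in 16 of 17 pairs, lines of Pcdh9 climb in 1 of 17, and Pcdh10 is higher at Necab1 than at Tnnt1 in 19 of 19.

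The systems differed in how many cells they had of each class. Over all cells of a system the Calb2 share was 62.6% in auditory (37.8 to 80.8% in single sums), 45.1% in prefrontal (17.5 to 71.9%), 33.3% in visual (27.7 to 43.5%), 9.92% in motor (8.75 to 12.2%) and 1.75% in somatosensory neurons (1.42 to 2.67%). Auditory, prefrontal and visual sums overlapped, and all of them lay above every motor and somatosensory sum. The Tnnt1 share was 80.0% in somatosensory (74.7 to 92.8%), 43.2% in motor (22 to 65.5%), 41.1% in visual (33.8 to 47.7%), 24.2% in auditory (8.22 to 43.2%) and 12.4% in prefrontal neurons (3.13 to 20%). Somatosensory sums lay above all others, and motor sums overlapped with visual and auditory ones. Levels within a class were therefore set side by side, with no test.

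Pcdh9 was low in prefrontal neurons of the Tnnt1 class too, at 141 ± 39.0 CPM (n = 3), where the other systems had means of 373 to 542. In the Calb2 class prefrontal sums held 109 ± 72.4 CPM (n = 4) and the others 183 to 389. In the Necab1 class prefrontal (159 ± 47.9, n = 4) and somatosensory sums (155 ± 16, SD, n = 2) had close means and the rest held 284 to 456. By the means, Pcdh7 was lowest in prefrontal sums in all 3 classes, at 15.1, 59.7 and 28.5 CPM against at least 113, 70.6 and 62.4 elsewhere. Cdh13 was highest in prefrontal sums in all 3 classes, at 97.0, 159 and 168 CPM against at most 85.6, 83.7 and 95.2. Cdh8 was lowest in auditory sums in all 3, at 29.5, 5.88 and 24.5 CPM against at least 54.4, 63.2 and 48.7. Pcdh17 was lowest in visual sums in all 3, at 5.46, 22.2 and 18.7 CPM against at least 22.3, 44.2 and 67.0. For these 4 genes the system with the lowest or highest mean was thus the same inside each class, but its single sums overlapped with other systems. For Pcdh7 they did so in the Necab1 class (prefrontal 47.3 to 73.0, auditory 23.5 to 107 CPM). For Cdh13 and Cdh8 they did so in the Tnnt1 and Calb2 classes, and for Pcdh17 in all 3. Somatosensory neurons gave no Calb2 sum.

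For Pcdh19 and Cdh12 the order of the systems was not the same in every class. Auditory Pcdh19 was 101 ± 18.7 CPM in the Calb2 class (n = 5), where the other systems held 33.7 to 76.1. In the Tnnt1 class it was 8.63 ± 10.8 (SD, n = 5), within the 6.65 to 22.8 of the others. Cdh12 in prefrontal sums was 14.2 and 11.1 CPM in the Necab1 and Calb2 classes, against at least 30.6 and 30.0 elsewhere. In the Tnnt1 class it was 65.4 ± 1.44 CPM (SD, n = 3), inside the 45.7 to 83.7 of the others. Whether these differences depend on class was not tested.

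The authors' clusters, 17 within systems and 9 joint ones over all systems, come from the expression of these same cells, so member levels in them are a description. Counts were summed per animal and cluster where at least 10 cells were present. In joint clusters 1, 2 and 3 Pcdh9 held 522 ± 190, 502 ± 41.3 and 491 ± 30.7 CPM (SD, n = 6, 6 and 4). It held 153 ± 62.8 CPM in joint cluster 8 (n = 3) and 78.3 ± 26.8 in joint cluster 9 (SD, n = 2). All 99 cells of joint cluster 9 were prefrontal cells of batch 1, and 62 of the 65 cells of joint cluster 8 were auditory. Pcdh19 was lowest in joint cluster 1, at 7.47 ± 4.49 CPM (n = 6), and highest in joint cluster 8, at 139 ± 41.8 (SD, n = 3). In joint cluster 9, where Pcdh9 was lowest, Pcdh19 held 51.3 ± 2.90 CPM (SD, n = 2).

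Joint cluster 8 was also set apart by near absence of 2 type II cadherins, Cdh8 at 5.15 ± 3.13 CPM and Cdh11 at 2.89 ± 5.00 (SD, n = 3), which elsewhere had means of at least 26 and 27.3. Pcdh8 was highest there, at 85.5 ± 115 CPM, with a spread larger than its mean, and was at 0 in joint cluster 1. Cdh13 was highest in joint cluster 9 (167 ± 33.0, n = 2) and 7 (133 ± 50.4, SD, n = 3), both mainly prefrontal. Pcdh17 reached 248 ± 80.1 CPM in joint cluster 4 (n = 7), mainly motor cells, and 211 ± 42.1 in joint cluster 9 (n = 2), and 6.78 ± 4.74 in joint cluster 3 (SD, n = 4), of which 92.6% were visual cells.

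**Figure D5:**
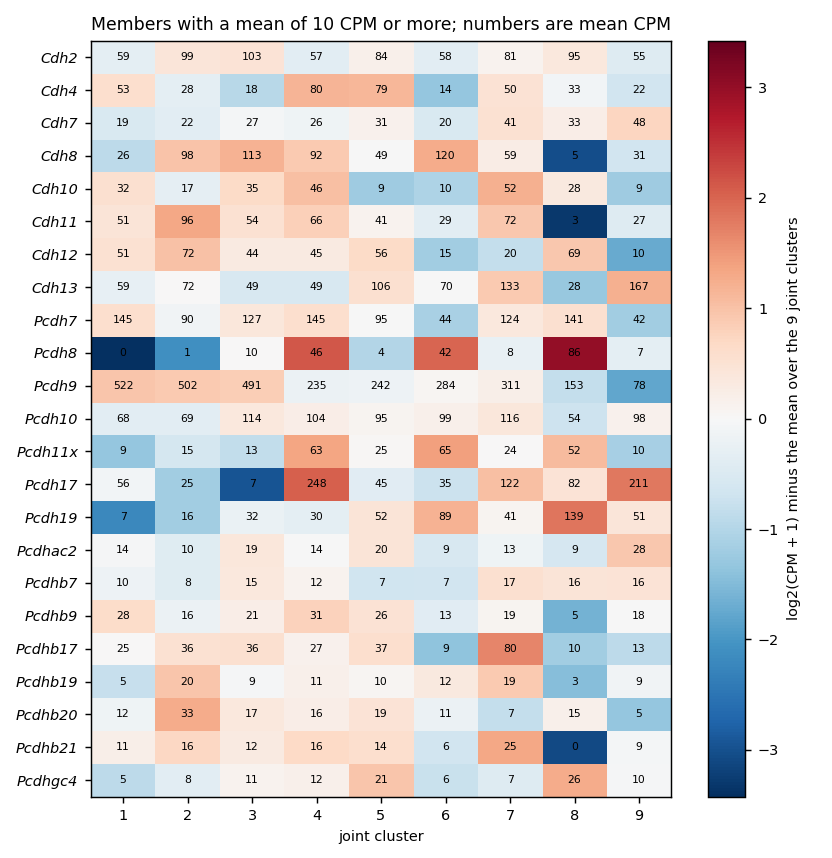
Mean level of the members with at least 10 CPM (rows) in the authors' 9 joint clusters (columns); printed numbers are mean CPM and colour is log2(CPM + 1) minus the mean of the row. Pcdh9 is highest in joint clusters 1 to 3 (491 to 522) and lowest in 9 (78), Pcdh19 is highest in 8.

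Member levels also varied between the clusters of 1 system. Among motor clusters Pcdh17 held 280 ± 66.3 CPM in cluster 3 (n = 5), 127 ± 34.8 in cluster 1 (n = 5), 55.9 ± 6.12 in cluster 4 (n = 3) and 32.0 ± 7.36 in cluster 2 (SD, n = 4). Pcdh9 held 625 ± 58.4 CPM in motor cluster 1 and 220 ± 59.1 in motor cluster 3 (SD, n = 5 each), and 571 ± 42.7 and 155 ± 11.6 in somatosensory clusters 1 and 3 (n = 2 each). Pcdh19 held 6.59 ± 5.47, 82.9 ± 16.3 and 143 ± 39.3 CPM in auditory clusters 1, 2 and 3 (SD, n = 4, 5 and 3). Cdh4 divided clusters within systems: 102 ± 32.9 CPM in auditory cluster 2 (n = 5) against 32.0 ± 12.7 in cluster 3 (n = 3), and 86.0 ± 34.0 in motor cluster 3 (n = 5) against 7.50 ± 9.75 in cluster 2 (SD, n = 4).

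The intracellular partners of the family stand beside the same background of 12.6% of all genes called among the systems. Of 8 tested catenins, which join cadherins to actin, 2 passed after adjustment (edgeR quasi-likelihood F test). All 8 had an unadjusted p under 0.05, as did 4381 of the 17211 genes tested. DESeq2 called 5 of the 8, and the share of all genes that DESeq2 called is not given here. The junction catenin Jup (adjusted p = 0.0396) held 46.0 ± 19.3 CPM in auditory (n = 5) and 45.5 ± 20.6 in prefrontal sums (n = 4) against means of 17.1 to 20.5 elsewhere. Pkp4, a p120-like catenin (adjusted p = 0.00822, edgeR quasi-likelihood), held 224 ± 31.4 and 225 ± 82.7 CPM there (SD, n = 5 and 4) against 109 to 143. Of 9 WAVE complex genes only Brk1 passed (adjusted p = 0.0282, the same test), while DESeq2 called 2. Of 12 genes that control clustered protocadherin promoters or signal below them, only the kinase gene Ptk2b passed (adjusted p = 0.00903), lowest in prefrontal sums at 146 ± 80.7 CPM (SD, n = 4).

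Of 9 tested relatives outside the family, the FAT, Dachsous, Celsr and calsyntenin cadherins, 5 passed beside the background of 12.6% (edgeR quasi-likelihood F test): Fat1, Fat3, Celsr2, Clstn1 and Clstn2. Clstn1, a calsyntenin that carries cargo in axons, was highest in motor sums, at 823 ± 19.3 CPM (n = 5) against means of 583 to 771 elsewhere (log2 fold 0.33, SE 0.06, adjusted p = 0.00364, edgeR quasi-likelihood). None of the 6 genes that cut cadherins from the membrane (Adam10 and gamma-secretase parts) passed in edgeR's test among systems. Of these 6, 0 had an unadjusted p under 0.05, beside 4381 of the 17211 genes tested, and DESeq2 called 0.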

How the data were processed

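Neurons were sequenced as 3' tags on 26 plates. Adapter trimming with cutadapt 1.16, alignment with STAR 2.5.3 and Picard 1.12, to mm10, come from the submitters' processing notes. The authors deposited raw UMI counts per cell and gene and a table of system, animal, cluster and joint cluster for each cell, per the file headers. The annotation and the assignment of tags shared by several genes are not given in the sources used here. Members and lists were chosen with earlier results of these data known.

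Counts were summed per animal and system (at least 10 cells), 21 sums, and per class (at least 5 cells), 58 sums. Sums were numbered in the order of the animal identifiers. Plates were placed in batches from the labels. edgeR 4.0.16 (R 4.3.3) fitted all genes that passed filterByExpr, with TMM factors of 0.956 to 1.06, trended dispersion and its earlier quasi-likelihood method, batch as a term for systems and animal with system as a block for classes; p-values were Benjamini-Hochberg adjusted over all genes, with a threshold of 0.05. The F test covers the 5 systems. Standard errors are the log2 difference over the root of F. Tested on simulated counts, the fit found most of the strongly and fewer of the weakly changed genes. The quasi-likelihood method, the low-count filter of the classes and the limit of the self-test were settled after output on real or simulated data had been seen. Clusters were described only. Members with full values were those past 0.05 in the F test with a mean of at least 10 CPM, and the 3 highest of each group. No doublets were called, since cells were picked by hand; of 375 well barcodes 372 occur on more than 1 plate, so cells were told apart by plate and barcode. Of the 1972 cells, 20 carry a flag of the authors. Alternatives were DESeq2 1.42.0, no filter, no batch term, sums by sort date, flagged or marker-bearing cells left out, each batch, sum or system left out, a newer edgeR fit and another class filter, of which the last 2 were chosen after seeing the data. The sums of a system are separate animals by their identifiers. Depth per sum limits counting precision: a count of 3 in all auditory sums equals 0.0819 CPM. No paired test between systems was made.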

Additional observations from a re-analysis of the deposited data

Results flagged for a closer look

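Over 80 groups of 4 or 5 sums of 20 members, 3 sums stood apart from the rest of their group; chance alone flags about 1 group in 20. Pcdh20 was at 0.590 CPM in prefrontal replicate 3 and at 0 in the other 3 prefrontal sums. Pcdh20 was at 0.120 CPM in visual replicate 4 and at 0 in the other 3 visual sums. Pcdha2 was at 0.390 CPM in auditory replicate 2 and at 0 in the other 4 auditory sums. In all 3 the rest of the group was at 0, so that any counted UMIs set the sum apart.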

How the results depend on the processing

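No call of a named member changed direction under any alternative. Counts of called members stand against 14 among the 5 systems, 9 for auditory, 5 for motor, 6 for prefrontal, 1 for somatosensory, 1 for visual, 7 for Calb2 against Tnnt1 and 2 for Necab1. DESeq2 called 3 for somatosensory, 2 for visual and 5 for Necab1. Without the filter on low counts there were 11 for motor, 4 for somatosensory, 5 for visual, 11 for Calb2 against Tnnt1 and 5 for Necab1. Without the batch term there were 3 for somatosensory and 4 for visual. Summing cells by sort date left 9 among the systems and 0 each for motor, somatosensory and visual. Without batch 1 there were 8 among the systems, 2 for motor and 3 for prefrontal, without batch 2 there were 3 for auditory and 9 for motor, and without batch 3 there were 7 among the systems, 5 for auditory, 2 for motor and 3 for somatosensory. Leaving out the auditory, motor, prefrontal or somatosensory sums gave 5, 1, 1 and 1 for Necab1. Alternatives added after seeing the data were edgeR's newer fit, with 9 for motor, 11 for Calb2 against Tnnt1 and 12 for Necab1, and a filter from the full class design, with 1 for Necab1. Leaving out 1 sum at a time gave 10 to 16 among the systems, 5 to 9 for auditory, 3 to 6 for motor, 4 to 7 for prefrontal, 0 to 2 for somatosensory, 0 to 1 for visual, 6 to 8 for Calb2 against Tnnt1 and 1 to 4 for Necab1. Except where fewer sums or other genes entered, the cause was not tested. The share of all genes called under each alternative is not given here. A higher or lower count of members under an alternative therefore cannot be read as a result about the members. The clustered protocadherins per cell were 1.95 thinned and 3.03 not thinned, so that number changed with depth. No paired analysis between systems was made, because only 1 animal identifier is recorded for more than 1 system. Replicate numbers were given in identifier order and do not pair animals. The class contrasts compare sums of the same animal.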
